A study of Mus musculus with 30 samples.

Results

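The expression of 10 genes of muscle stem cells and of muscle cell fusion (Pax7, Calcr, Megf10, Chrdl2, Cdh15, Vcam1, Ncam1, Itga7, Sdc4 and Mymk) was examined in mouse gastrocnemius muscle, out of 56951 gene symbols in the deposited tables. The genes were chosen by name, as markers of satellite cells or as the gene of the fusion protein Myomaker, and each was found on 1 row of the tables. All mice were male wild-type C57BL/6J, purchased at 10 weeks of age, caged singly with a running wheel, held for 2 weeks under a light-dark cycle and for 2 weeks in constant darkness, and then kept for 64 weeks on 1 of 2 schedules, which puts them at about 78 weeks of age at sampling. The LD group (n = 14) stayed under a fixed 12:12-h light-dark cycle, and the ADV group (n = 16) under a cycle whose phase was advanced by 8 h every 4 days. The gastrocnemius was collected along with the plantaris over several hours of the light period, when both groups had the same light-dark cycle. It gave 1 RNA-seq library per mouse. The hour at which each mouse was sampled is not in the labels, so differences of hour and differences between animals cannot be told apart. The question was whether transcripts of satellite cells and of fusion differ between the schedules, and how they vary between mice.

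Satellite cells are the stem cells of skeletal muscle. They lie between the plasma membrane of the muscle fiber and the surrounding basal lamina, mostly in quiescence, and on activation they proliferate as myoblasts, switch on the myogenic factors Myod1 and Myog and fuse with fibers or with each other. They make up a small part of the nuclei of a muscle, and several of their surface proteins are shared with other cells: Itga7 is also present on the fiber membrane, Vcam1 and Sdc4 on the endothelium, and Ncam1 at the neuromuscular junction and on nerve. In these whole-muscle libraries, fewer cells of a type and less RNA per cell cannot be told apart.

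The promoters of 3 of the genes are shown, chosen for the expression of these genes: Sdc4 was called different between the groups, Itga7 was the most abundant, and most reads of Mymk came from 3 mice. No expression result rests on the promoters. Each line gives the 250 bases before the first base of the counted transcript, 5′ to 3′ on the strand of the gene, from the GRCm39 reference genome. Sdc4 is at chr2:164285107-164285356 (minus strand), Itga7 at chr10:128769437-128769686 (plus strand) and Mymk at chr2:26962192-26962441 (minus strand). Capitals mark E-boxes (CANNTG, the letters bound by Myod1 and Myog and by other helix-loop-helix factors), AP-1 sites (TGANTCA) and GC boxes (GGGCGG), searched on both strands.
Sdc4: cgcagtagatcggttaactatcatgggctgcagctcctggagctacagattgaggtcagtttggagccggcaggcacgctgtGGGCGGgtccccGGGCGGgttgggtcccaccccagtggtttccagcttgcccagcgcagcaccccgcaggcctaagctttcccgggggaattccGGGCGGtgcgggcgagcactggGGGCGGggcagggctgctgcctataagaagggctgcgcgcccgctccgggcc
Itga7: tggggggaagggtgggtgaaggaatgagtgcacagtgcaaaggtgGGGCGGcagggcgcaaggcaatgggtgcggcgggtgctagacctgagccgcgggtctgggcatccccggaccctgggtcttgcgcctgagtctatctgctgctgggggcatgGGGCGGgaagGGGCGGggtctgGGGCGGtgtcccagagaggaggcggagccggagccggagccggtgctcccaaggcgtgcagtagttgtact
Mymk: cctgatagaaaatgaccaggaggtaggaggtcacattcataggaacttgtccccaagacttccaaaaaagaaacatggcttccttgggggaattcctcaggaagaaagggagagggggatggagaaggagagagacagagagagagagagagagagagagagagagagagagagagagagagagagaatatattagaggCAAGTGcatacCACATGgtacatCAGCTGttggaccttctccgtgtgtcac

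The Sdc4 and Itga7 windows each held 4 GC boxes and no E-box or AP-1 site, and the Mymk window held 3 E-boxes, the nearest to the start being CAGCTG at position -28, and no GC box. Among the promoters of the same length of 12028 genes tested, 56.5% held at least 1 GC box and 8.46% held 4 or more, while 57.6% held at least 1 E-box and 6.93% held 3 or more. CAGCTG was in 12% of these promoters, and was also in that of Pax7, at position -25. Of the other promoters examined, that of Cdh15 and that of Chrdl2 held none of these motifs, and that of Vcam1 held an AP-1 site at position -233, a motif found in 4.04% of promoters. These matches describe the letters of the windows only.

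Between 18875468.5 and 28512674 reads per library were counted on exons, with a median of 21711467.5 in the LD group and 22152249 in the ADV group. The libraries were muscle: the summed expression of 10 myofiber markers ranged from 63855 to 85845 FPKM (fragments per kilobase of transcript, scaled to the size of the library) in the LD group and from 61511 to 82289 FPKM in the ADV group. No library had a correlation under 0.982 with the median of its group, and LD mouse 23 and LD mouse 33 stood farthest out on the first principal components. Tests were made with edgeR's quasi-likelihood F test on genes that averaged over 20 reads and over 0.5 FPKM, with Benjamini-Hochberg adjustment over 12030 genes (FDR). Of these, 1301 (10.8%) had an FDR under 0.05, 5.61% called higher in ADV mice and 5.2% called lower, and 252 (2.09%) also had a fold change over 1.3. A score of clock genes, high where Bmal1 is high and Dbp is low, ran from -3.18 to 1.11 (median -1.03) in the LD group and from -1.25 to 2.42 (median 0.96) in the ADV group.

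Of the 10 genes, 1 differed between the groups. Sdc4 was higher in the ADV group, by 1.33-fold, and the other 5 genes that could be tested (Itga7, Cdh15, Vcam1, Ncam1 and Chrdl2) had an FDR over 0.05, so that 1 of 6 was called, in the direction in which 5.61% of all genes tested were called. All 6 had log2 fold changes above 0, with a median of 0.09 on the log2 scale, beside a median of 0.00 over all genes tested, of which 50.8% were above 0. Among the 6, Cdh15 was at 0.00 (SE 0.07) and Ncam1 at 0.02 (SE 0.12), and both changed sign with some single mice left out. With the GC content trend removed, Cdh15 was at -0.08 and Itga7 at 0.00. The other 4 (Pax7, Calcr, Megf10 and Mymk) were under the filter and were tested in a wider edgeR fit of 20084 genes with a mean of at least 1 read, in which 970 genes (4.83%) were called. None of the 4 was called there, 0 had an unadjusted p under 0.05, and DESeq2 in the same gene set called neither Pax7 nor Megf10 and gave no adjusted p for Calcr and Mymk.

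**Figure D1:**
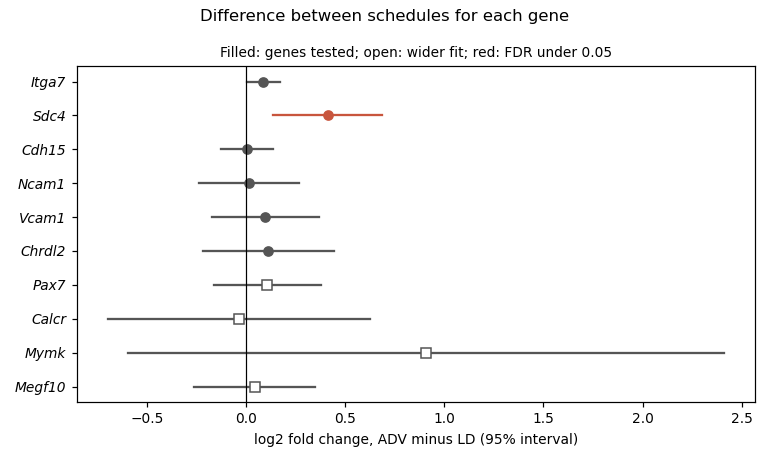
Log2 fold change of each gene, ADV minus LD, on the horizontal axis, with its 95% interval as a line; filled circles are genes of the main edgeR fit, open squares those of the wider fit, and red marks an FDR under 0.05. The interval of Sdc4 lies between 0.14 and 0.69, and that of Mymk is the widest, from -0.60 to 2.41.

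The levels of the genes ran from those of common transcripts to those of barely read ones. On the FPKM scale, which is per length of transcript, the mean level over the 30 libraries was 22.04 for Itga7, 13.9 for Sdc4, 5.78 for Cdh15, 0.997 for Ncam1, 0.868 for Vcam1, 0.705 for Chrdl2, 0.310 for Pax7, 0.0873 for Calcr, 0.0867 for Mymk and 0.0809 for Megf10. Itga7 was above Sdc4 in 28 of 30 libraries, and the order from Sdc4 to Cdh15 to Ncam1, and from Chrdl2 to Pax7 to Calcr, held in every one of the 30. Ncam1 was above Vcam1 in 22 libraries and Vcam1 above Chrdl2 in 22, so these neighbours were not separated in every mouse. Calcr was above Mymk in 25 libraries, at a ratio of means near 1. Mymk and Megf10 could not be ordered: Mymk had the higher mean, but was below Megf10 in 22 of 30 libraries.

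**Figure D2:**
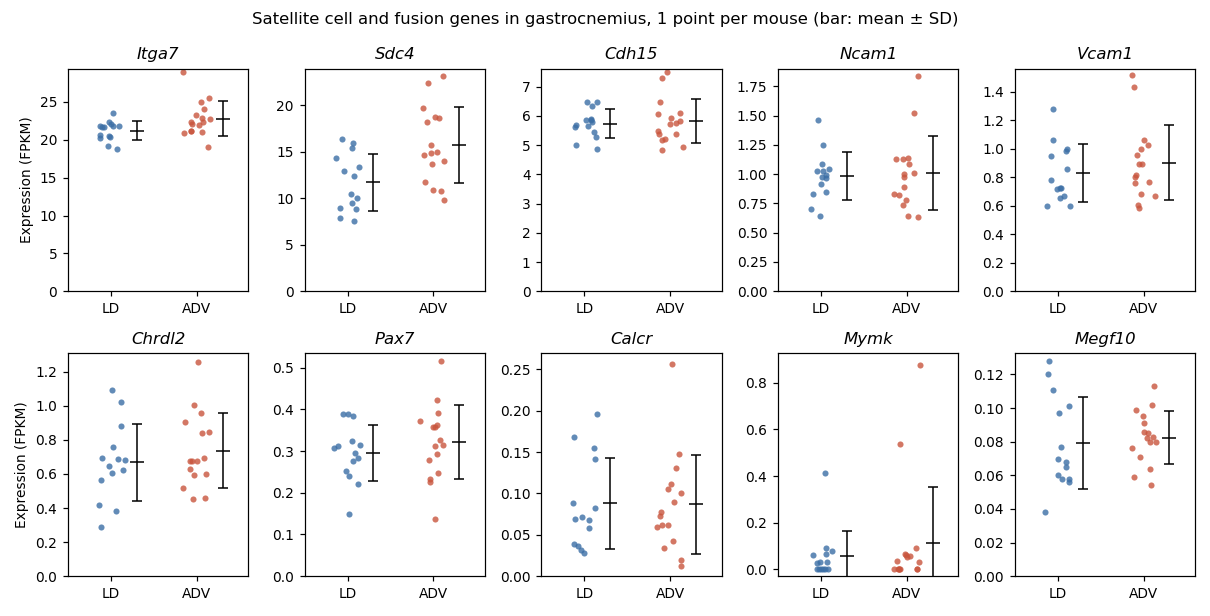
Expression (FPKM) of the 10 genes, 1 panel per gene, with 1 point per mouse in the LD (blue, n = 14) and ADV (red, n = 16) groups; black bars are mean ± SD, with the lower end for Mymk running below the axis. The groups overlap in every panel; for Sdc4, 6 ADV mice lie above the highest LD mouse, and for Mymk 2 ADV mice and 1 LD mouse lie far above the rest.

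Pax7, the paired-box transcription factor that defines satellite cells (chr4:139464373-139560839, minus strand, 9 exons), was read in every library. It had 24.5 to 63 reads per library in the LD group (median 40.25) and 19.5 to 72.5 in the ADV group (median 47.25). The levels were 0.150 to 0.389 FPKM in the LD group (median 0.302) and 0.138 to 0.515 FPKM in the ADV group (median 0.321). The groups overlapped over nearly their whole range, with 10 of 16 ADV mice above the LD median and 3 ADV mice above the highest LD mouse. Mean ± SD was 0.296 ± 0.068 FPKM for LD (n = 14) and 0.322 ± 0.089 FPKM for ADV mice (n = 16), with a log2 fold change of 0.11 (95% interval -0.16 to 0.38, edgeR FDR 0.705 in the wider fit). Leaving out 1 mouse at a time gave 0.06 (without LD mouse 33) to 0.16 (without ADV mouse 30), with no FDR under 0.05.

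Of the other genes of quiescent satellite cells, Calcr and Megf10 had few reads. Calcr, the calcitonin receptor, which holds satellite cells in quiescence (chr6:3685720-3764714, minus strand), had 2.5 to 18 reads per library in the LD group and 1 to 26 in the ADV group, with means of 0.088 ± 0.055 and 0.087 ± 0.059 FPKM. Its log2 fold change was -0.04 (95% interval -0.70 to 0.62, edgeR FDR 0.968 in the wider fit). This interval includes a difference as large as that of Sdc4 in either direction, and Calcr varied between mice by 62.4% and 68.4% of its group means, beside 35.6% from counting alone. Megf10, a receptor with EGF-like repeats that acts in satellite cell proliferation, on chromosome 18, had 8 to 23 reads in the LD group and 9.5 to 22 in the ADV group. Its means were 0.079 ± 0.027 and 0.083 ± 0.016 FPKM, the 2 highest and the lowest of all libraries were of LD mice, and the log2 fold change was 0.04 (-0.26 to 0.35, edgeR FDR 0.909 in the wider fit). Chrdl2, a secreted antagonist of bone morphogenetic proteins that is enriched in quiescent satellite cells (chr7:99655611-99683933, plus strand), passed the filter at 0.289 to 1.09 FPKM (median 0.664) in the LD group and 0.453 to 1.26 FPKM (median 0.679) in the ADV group. For Chrdl2 the 3 lowest libraries were LD mice and the highest was an ADV mouse, and the log2 fold change was 0.11 (-0.22 to 0.44, edgeR FDR 0.674), and 0.04 to 0.19 with each mouse left out in turn.

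The adhesion molecules of the satellite cell surface did not pass the test. Cdh15 encodes M-cadherin, which holds the satellite cell to its fiber (chr8:123574705-123594136, plus strand, 14 exons). It was at 4.87 to 6.48 FPKM (median 5.73) in the LD group and 4.83 to 7.49 FPKM (median 5.73) in the ADV group. The medians were the same to this precision and 8 of 16 ADV mice were above the LD median. The means were 5.74 ± 0.49 and 5.82 ± 0.76 FPKM, a log2 fold change of 0.00 (SE 0.07, edgeR FDR 0.972), and its 95% interval of 0.915-fold to 1.10-fold was among the narrowest of the 10 genes.

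Vcam1, a ligand of the integrin of Itga4 and Itgb1 (chr3:115903598-115923337, minus strand), was at 0.596 to 1.28 FPKM (median 0.754) in the LD group and 0.581 to 1.52 FPKM (median 0.853) in the ADV group. In 12 of 16 ADV mice it was above the LD median, 2 ADV mice were above the highest LD mouse, and the log2 fold change was 0.10 (-0.17 to 0.37, edgeR FDR 0.653), and 0.04 to 0.17 with each mouse left out in turn. Ncam1, the neural cell adhesion molecule, which marks myoblasts and denervated fibers as well as satellite cells (chr9:49413436-49710225, minus strand), was at 0.640 to 1.46 FPKM (median 0.983) in the LD group and 0.632 to 1.84 FPKM (median 0.989) in the ADV group. Its log2 fold change was 0.02 (-0.24 to 0.27, edgeR FDR 0.950), and -0.06 without ADV mouse 27, the highest of all. Exons of Ncam1, Itga7 and Vcam1 share 6.7%, 5.49% and 1.75% of their bases with the long noncoding genes Gm11149, Gm67756 and Gm43109 on the opposite strand (GENCODE vM39). Itga7 also shares 1.59% with the noncoding Gm67752 and 0.66% with the protein-coding Tmt1b, and whether the counting used strand is not given in the sources used here.

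The receptors for the matrix were the most abundant of the genes. Itga7, the alpha subunit of the laminin receptor of satellite cells and fibers (chr10:128769687-128794151, plus strand, 25 exons), was at 18.8 to 23.6 FPKM (median 21.7) in the LD group and 19.0 to 28.9 FPKM (median 22.4) in the ADV group. Most ADV mice lay within the LD range, 4 of 16 lay above it, and 11 were above the LD median. Mean expression was 21.2 ± 1.28 and 22.8 ± 2.30 FPKM, a log2 fold change of 0.09 (SE 0.04, 95% interval 0.00 to 0.17). The unadjusted p was 0.0454 and the FDR 0.157 by edgeR's quasi-likelihood test, so Itga7 was not called, beside 30.1% of all genes tested with an unadjusted p under 0.05. Once GC content trends were taken out, its log2 fold change was 0.00.

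Sdc4, a heparan sulfate proteoglycan that binds fibronectin and presents growth factors to their receptors (chr2:164266167-164285106, minus strand, 5 exons), was the gene that differed. It was at 7.54 to 16.3 FPKM (median 11.4) in the LD group and 9.78 to 23.2 FPKM (median 14.9) in the ADV group, resting on 707 and 947 reads per library on average. The groups overlapped, but 13 of 16 ADV mice were above the LD median, 6 ADV mice were above the highest LD mouse and 5 LD mice below the lowest ADV mouse. Mean ± SD was 11.7 ± 3.05 FPKM for LD (n = 14) and 15.7 ± 4.06 FPKM for ADV mice (n = 16), with a log2 fold change of 0.41 (SE 0.13, 95% interval 0.14 to 0.69) with a p of 0.00457 and an FDR of 0.0453 by edgeR's quasi-likelihood test. A two-sided permutation test of the rank sum of FPKM gave p = 0.00767, unadjusted, and DESeq2 an adjusted p of 0.0247.

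The call for Sdc4 stood close to the threshold. The log2 fold change was 0.41 with all genes of at least 1 read in the fit, 0.42 with those over 5 reads and 0.39 with GC content trends taken out, and the edgeR FDR was 0.0630, 0.0508 and 0.0745. In the 30 edgeR fits that each left out 1 mouse the log2 fold change was 0.36 to 0.46, and the FDR 0.0258 to 0.0807, at or over 0.05 in 15 of them (without ADV mouse 24, 25, 29, 30, 32, 33 or 34, or LD mouse 23, 27, 28, 30, 31, 32, 33 or 36). In a fit that also held the clock score, Sdc4 was at 0.16 on the log2 scale with an FDR of 0.723. The score itself differed between the groups. Of its genes, 7 of the 8 high when Bmal1 is low were called lower in ADV mice. Of the 5 high with Bmal1, 3 were called higher. The score thus stands in part for the schedule, and this fit cannot separate the 2. In that fit edgeR called 0 of 12030 genes, 1581 of which had an unadjusted p under 0.05, and DESeq2 was not run with the score. Within the LD group, Sdc4 and the clock score had a Pearson's r of 0.641 (p = 0.0153, adjusted 0.214) and a Spearman's rho of 0.574 (p = 0.0355, adjusted 0.45), by permutation tests adjusted over 14 comparisons. Within the ADV group, r was 0.064 (p = 0.82, adjusted 0.889) and rho -0.085 (p = 0.754, adjusted 0.944). Without the 2 mice farthest from the median score, r was 0.456 in the LD group and 0.052 in the ADV group. The comparison with the score was chosen after its values were seen.

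**Figure D3:**
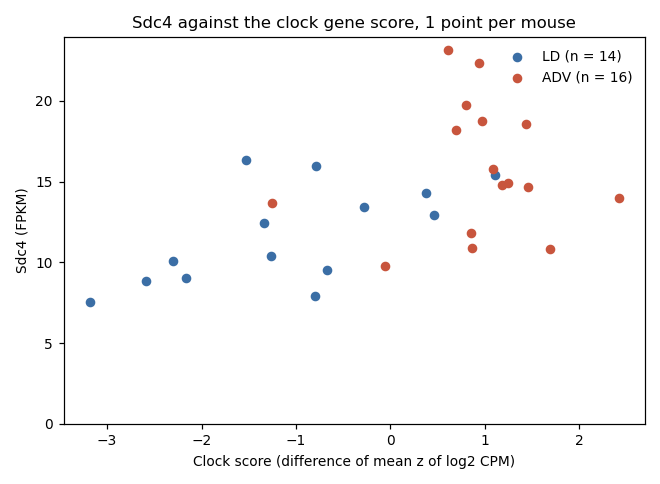
Expression of Sdc4 (FPKM, vertical axis) against the clock gene score of the same library (horizontal axis, a difference of mean z values), 1 point per mouse in the LD (blue, n = 14) and ADV (red, n = 16) groups. LD mice spread from -3.18 to 1.11 on the score and ADV mice lie mostly above 0, where Sdc4 ranges widely.

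Markers of the endothelium, which also expresses Sdc4 and Vcam1, were compared between the groups. The sum of 10 endothelial markers was 80.3 to 108.5 FPKM (median 94.5) in the LD group and 92.6 to 118.8 FPKM (median 100.5) in the ADV group. Of the 10, Emcn and Pecam1 rose, by 0.27 (edgeR FDR 0.00945) and 0.16 (FDR 0.0323) on the log2 scale, and none of the others passed the test. Among all genes tested, 10.8% were called. By edgeR, 3 of the 10 markers had an unadjusted p under 0.05, beside 30.1% of all genes tested. Vwf, the von Willebrand factor, was at -0.17 with an unadjusted p of 0.0433 and an FDR of 0.153. The median log2 fold change was 0.12, and none of the markers had a level of 0 FPKM in all libraries. The part of the endothelial and clock gene levels in the Sdc4 difference was not tested beyond these values.

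Mymk encodes Myomaker, the membrane protein that myoblasts need to fuse (chr2:26951648-26962191, minus strand, 5 exons), and it was barely read. It had 0 reads in 6 of 14 LD libraries and 7 of 16 ADV libraries, a count that allows up to 3 reads or 0.0779 to 0.105 FPKM in these libraries, counting error only. The median was 1 read in both groups. The 26 reads of the LD group and 59 of the ADV group came mostly from 3 mice: ADV mouse 27 had 29 reads, ADV mouse 28 had 17, LD mouse 32 had 12, and all the others had 4 or fewer. The means were 0.057 ± 0.107 FPKM and 0.113 ± 0.242 FPKM, and the log2 fold change was 0.91 (-0.60 to 2.41, edgeR FDR 0.515 in the wider fit). It was 0.09 without ADV mouse 27, 0.53 without ADV mouse 28 and 1.66 without LD mouse 32, with FDRs of 0.965, 0.744 and 0.214. The size of the Mymk difference therefore rested on single mice in each group.

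The libraries with the most Mymk were examined for other transcripts of new or denervated fibers and of myogenic factors, which were picked after their values were seen. Chrng, the gamma subunit of the acetylcholine receptor of fetal and denervated muscle, had a median of 1 read in the LD group and 2 in the ADV group. It had 28.5 reads in ADV mouse 27, 11 in ADV mouse 28 and 10.5 in LD mouse 32, but also 21.5 in LD mouse 34, in which Mymk had 4, and 9 in ADV mouse 32. Myh3, the embryonic myosin heavy chain, was at 3.23 FPKM in ADV mouse 27, the highest of the ADV group (median 1.26), but ranked 4th in its group in ADV mouse 28 and in LD mouse 32. Mymx, whose protein Myomixer acts with Myomaker, had 4, 3 and 4.5 reads in these 3 mice and 7 in ADV mouse 32, the most of the ADV group. LD mouse 29, which had the most Mymx of the LD group with 7 reads, had 0 reads of Mymk. Myod1 was 3rd and 2nd in the ADV group in mice 27 and 28, and last of 14 in the LD group in mouse 32. Myog was 3rd and 9th in the ADV mice 27 and 28 and 2nd in LD mouse 32, and Chrnd, the delta subunit of the receptor, was 2nd and 15th in the ADV mice and 3rd in LD mouse 32. These transcripts thus did not all rank high in the mice with the most Mymk.

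**Figure D4:**
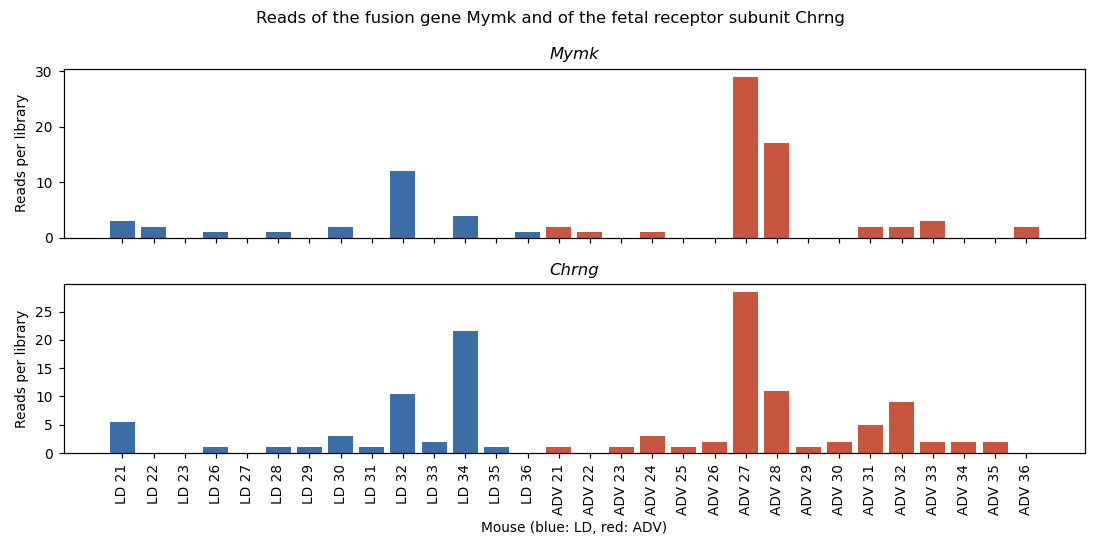
Reads per library of Mymk (top) and Chrng (bottom) in each mouse, with LD mice in blue and ADV mice in red. Mymk has 29 reads in ADV mouse 27, 17 in ADV mouse 28 and 12 in LD mouse 32 and 4 or fewer elsewhere. Chrng has 28.5, 11 and 10.5 reads in the same 3 mice, but also 21.5 in LD mouse 34 and 9 in ADV mouse 32.

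ADV mouse 27 stood high for some of the genes and low for others. It had the highest level of the ADV group for Pax7 (0.515 FPKM), Ncam1 (1.84 FPKM), Itga7 (28.9 FPKM) and Mymk (0.876 FPKM), and was 3rd for Cdh15, but it was 8th of 16 for Megf10, 9th for Chrdl2, 13th for Vcam1 (0.679 FPKM) and 14th for Calcr (3 reads) and for Sdc4 (10.9 FPKM). No other mouse was first in its group for more than 2 of the 10 genes. Without this mouse, the log2 fold change was 0.06 for Pax7, 0.06 for Itga7 and 0.44 for Sdc4. Its 33 reads of Mki67, a marker of dividing cells, were the most of the ADV group (median 13), while LD mouse 31 had 40.5.

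Across mice of the same group, no pair of the genes was found to vary together past the threshold. Over the 7 genes that averaged over 20 reads there were 21 pairs per group and 42 in all, and by permutation 0 pairs had an adjusted p under 0.05 for Pearson's r or for Spearman's rho, with 1 pair per group under 0.05 by the unadjusted p of r. The median r was -0.01 among LD mice and 0.09 among ADV mice. The spread between mice exceeded counting error for the abundant genes: the coefficient of variation of Sdc4 was 26.04% in the LD group and 25.8% in the ADV group, beside 3.46% from counting alone, and that of Itga7 was 6.03% and 10.1%, beside 2.16%. Cdh15 varied by 8.54% and 13.0% (counting 4.68%) and Pax7 by 22.9% and 27.6% (counting 15.1%). For Megf10 in the ADV group the spread, 19.1%, was below the 26.1% from counting. The part of the sampling hour in the spread between mice was not tested.

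For each gene that passed the filter, the genes with the most similar levels over the 30 libraries, after the group means were removed, were listed as a description. For Sdc4 they were Rbp7, a retinol-binding protein (r = 0.796), Nfil3, a transcription factor that is also part of the clock score (r = 0.781), and Tinagl1, a secreted matrix protein (r = 0.771). Nfil3 rose by 1.28 and Tinagl1 by 0.58 on the log2 scale (edgeR FDR 4.89e-04 and 0.0173), while Rbp7, at 0.27, did not pass the test (FDR 0.318). The nearest to Vcam1 were B2m, the light chain of class I histocompatibility molecules, and Itgb7, a leukocyte integrin subunit (both r = 0.702), and the nearest to Ncam1 were Postn (r = 0.767) and Cilp (r = 0.701), which encode matrix proteins. Itga7 was nearest to Obsl1, a cytoskeletal adaptor (r = 0.715), Cdh15 to Syngr2, a vesicle protein (r = 0.764), and Chrdl2 to Sirt4, a mitochondrial sirtuin (r = 0.678). The libraries share depth and composition differences, and no p is given for these values.

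The counts of called genes in the lists of related genes are to be read beside the 10.8% called among all genes tested (5.61% higher, 5.2% lower). Of 26 other satellite cell genes, 22 were tested, and 0 rose and 2 fell, a share close to that of all genes: Lgr4, a receptor for R-spondins, from 6.10 ± 0.63 to 4.92 ± 0.81 FPKM (log2 fold change -0.32, edgeR FDR 0.00560), and Fgfr1, a fibroblast growth factor receptor, from 24.5 ± 2.95 to 21.2 ± 2.51 FPKM (-0.22, FDR 0.0231). The 2 most abundant, Des, the intermediate filament desmin, and Vegfa, an endothelial growth factor, had values of 0.07 and 0.25 with FDRs of 0.381 and 0.113, and the median of the list was 0.07. Des was at 1213 and Vegfa at 86.7 FPKM in the LD group, beside 0.296 for Pax7. The levels are of whole muscle, and which cells the genes of this list were read from was not tested. Pax3, Myf5, Tenm4 and Edn3 were under the filter, with a mean of 21.8 reads for Myf5, the myogenic factor of committed satellite cells.

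Of 13 genes of myogenic commitment, all were tested, 5 rose and 0 fell, with a median log2 fold change of 0.25. Myod1 went from 6.90 ± 2.22 to 11.6 ± 4.95 FPKM (0.73, edgeR FDR 0.0147), and Myog, the factor of terminal differentiation, from 1.57 ± 0.35 to 2.66 ± 0.94 FPKM (0.74, FDR 0.00377). Myf6 rose by 0.36, Dll1, a Notch ligand, by 0.58, and Cdkn1a, a cell cycle inhibitor, by 0.95, with FDRs of 0.00378, 0.0111 and 0.0241. Myod1, Myog, Myf6 and Dll1 were named by the study from these same mice, so the count is not independent evidence of a direction. Of the list, Mef2c, a differentiation factor and its most abundant gene, was at 116 and 110 FPKM (-0.10, FDR 0.401). With the clock score as a covariate, 0 of the 13 were called, as for the whole table.

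Of 30 other genes of myoblast fusion, 23 were tested, 1 rose and 3 fell, with a median of -0.02, beside 10.8% of all genes tested that were called. Arf6, a small GTPase of membrane traffic, rose by 0.28 (edgeR FDR 0.00682). Cdon and Neo1, receptors at contacts between myoblasts, fell by 0.29 and 0.16 (FDR 0.0205 and 0.0202), and Cdc42, a GTPase of the actin skeleton, fell by 0.12 (FDR 0.0491). The most abundant, Trim72, a membrane repair protein, was at 0.16 (FDR 0.0750). Mymx was under the filter, with a mean of 1.5 reads.

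Of 30 partners of the 10 proteins, 25 were tested, 2 rose and 3 fell, with a median of 0.00, beside 5.61% of all genes tested that were called higher and 5.2% that were called lower. Itga4, the receptor subunit for Vcam1, went from 1.07 ± 0.22 to 0.797 ± 0.173 FPKM (log2 fold change -0.44, edgeR FDR 0.0133), and Lama2, the laminin chain bound by Itga7, from 8.06 ± 0.80 to 6.96 ± 0.90 FPKM (-0.23, FDR 0.0205). Fgfr1, a co-receptor for Ncam1 and Sdc4, fell as given above. Ramp1, which modifies calcitonin-type receptors, rose by 0.32 (FDR 0.0367), and Bmp6, a bone morphogenetic protein, by 0.31 (FDR 0.0382). Ctnnb1, the catenin bound by cadherins, was at 56.1 and 56.5 FPKM and Itgb1, the beta subunit paired with Itga7, at 44.5 FPKM in both groups, with FDRs of 0.920 and 0.843. Itga4 is also made by leukocytes, whose 10 markers summed to 52.4 to 131.9 FPKM (median 69.8) in the LD group and 44.5 to 94.9 FPKM (median 60.01) in the ADV group. Most of this sum was Lyz2, with means of 55.4 and 46.1 FPKM beside 75.6 and 64.3 FPKM for the sum. The part of leukocytes in the Itga4 difference was not tested.

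**Figure D5:**
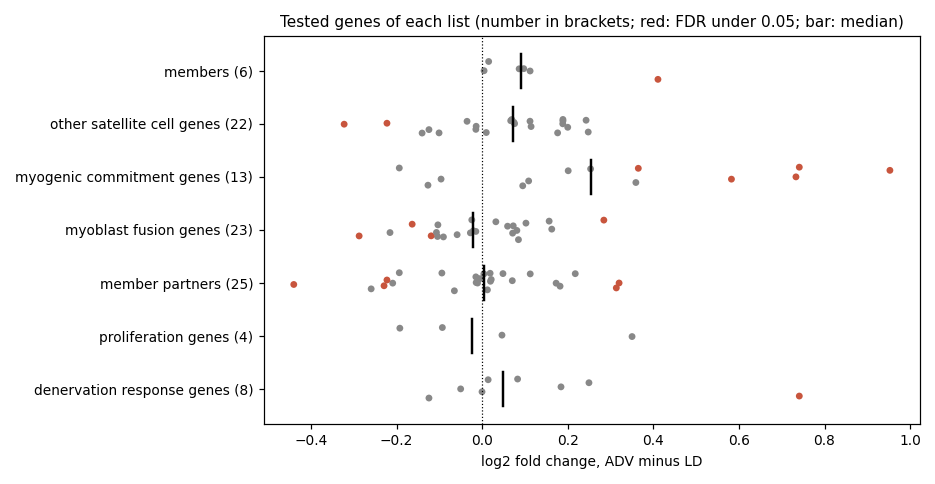
Log2 fold changes (ADV minus LD, horizontal axis) of the tested genes of 7 lists, 1 point per gene and 1 row per list (members are the genes reported here), with red for an FDR under 0.05 and a black bar for the median. The myogenic commitment genes hold 5 red points on the right and a median of 0.25, and the medians of the other lists lie between -0.02 and 0.09.

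Transcripts of dividing cells were mostly low, while most of the denervation response genes passed the filter. Of 14 proliferation genes, 10 were under the filter, including Mki67 with a mean of 14.3 reads, and of the 4 tested edgeR called 0, with 1 at an unadjusted p under 0.05 and 0 called by DESeq2. Of 11 denervation response genes, 8 were tested and 1, Myog, rose, with a median of 0.05 over the 8. Among the markers of other cells, 0 of 10 myofiber markers passed (2 at an unadjusted p under 0.05, 0 by DESeq2), 1 of 10 fibro-adipogenic markers fell (Pdgfra, -0.24, edgeR FDR 0.0194), and 1 of 10 mural cell markers rose (Tagln, 0.29, FDR 0.0328). Of 8 adipocyte markers 1 rose (Fabp4, 0.36, FDR 0.0231), with a summed level of 179 to 379 FPKM in the LD group and 190 to 698 FPKM in the ADV group. Fabp4 itself made up most of this sum, with means of 172 and 225 FPKM beside 275 and 356 FPKM for the sum. Of the 8 leukocyte and 6 Schwann cell markers tested, edgeR called 0, with 3 and 5 at an unadjusted p under 0.05 and 1 and 3 called by DESeq2. An unadjusted p under 0.05 by edgeR was also found for 3 of 10 fibro-adipogenic, 5 of 10 mural and 4 of 8 adipocyte markers. All these counts stand beside 30.1% of all genes tested with such a p, and beside 1679 of 12030 genes called by DESeq2. The median log2 fold change was -0.28 over the leukocyte and 0.45 over the Schwann cell markers, the latter summing to 25.3 to 48.7 FPKM (median 33.8) in the LD group and 27.9 to 85.4 FPKM (median 43.8) in the ADV group, and none of the markers of any list was at 0 in all libraries. The part of these cells in the levels of Ncam1, Vcam1 or the other genes was not tested.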

How the data were processed

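Poly(A)-enriched, stranded RNA was sequenced in 101-bp paired-end reads. The authors used Trimmomatic for trimming and STAR 2.7.10a for mapping to GRCm39, removed reads with a mapping quality under 10, and counted reads on exons of 57186 UCSC known canonical transcripts with HOMER 4.11, each mate as 0.5 read (versions from the submitters' processing notes). The authors deposited these expected counts without normalization and FPKM values, which are the counts divided by transcript length and by HOMER's total for the library. Values not whole (14.8% of the counts) were rounded with the rest.

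For each of 56951 symbols the longest expressed row was kept. Counts were tested with edgeR 4.0.16 (quasi-likelihood, TMM) in R 4.3.3 over all 14 LD and 16 ADV libraries. Genes that averaged over 20 reads and over 0.5 FPKM entered the main fit and those with a mean of at least 1 read the wider fit, and a call was an FDR under 0.05. Log2 fold changes are ADV minus LD, with 95% intervals. DESeq2 1.42.0 and limma 3.58.1 were alternatives, with other normalizations, filters and covariates. The clock score was the mean z of log2 CPM of 5 genes high with Bmal1 minus that of 8 genes high when Bmal1 is low. Correlations used log2(FPKM + 0.1), and permutation tests 100000 permutations (scipy 1.17.1). The fits were tested on simulated data.

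The genes reported and the lists were chosen with earlier results of these data known. All 10 genes were named, with the 3 most similar genes of each that passed the filter (of which 1 to 3 are given) and, per list, up to 4 called genes of lowest p and the 2 most abundant; Cdkn1a, the fifth called gene of its list, was named to complete the list, and Vwf, Chrng, Chrnd, Myh3, Mymx and Mki67 after their values were seen. Each library was 1 mouse, and no pair of a group was within sampling noise (chi-square per degree of freedom of at least 10.6). Gene coordinates and promoters are of GRCm39.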

Additional observations from a re-analysis of the deposited data

How the results depend on the processing

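The call for Sdc4 was kept under DESeq2, both other normalizations, limma on log2(FPKM + 0.1) or log2(FPKM + 1) and summed rows, with FDRs of 0.0247 to 0.0453. In other settings edgeR called 0 of the 6 genes reported here that passed the filter. These were a mean of at least 1 read (Sdc4 FDR 0.0630), a mean over 5 reads (0.0508) and the replicate block (0.111). The same held for the libraries with shared numbers without the block (0.125), the clock score covariate (0.723) and the GC content trend removed (0.0745). Over all genes, these settings called 970, 1204, 494, 616, 0 and 602, in the order given. Leaving out each mouse gave 0 to 1 called of the 6 genes. DESeq2 with genes of a mean of at least 1 read kept the call (0.0276). The cause was not tested. The log2 fold change of Sdc4 was 0.34 with the block, 0.33 without it in the same libraries and 0.39 with the GC trend removed, and its direction was kept throughout. Values of other genes changed sign close to 0. Cdh15 was at -0.0077 with the block, -0.0060 with shared numbers and -0.0829 with the GC trend removed, Ncam1 at -0.0550 with the block and -0.0339 with shared numbers, Chrdl2 at -0.0847 with the clock score, and the median of Calcr was 0.0050 FPKM higher in the ADV group. Leaving out each mouse gave -0.0250 to 0.0261 for Cdh15, -0.0613 to 0.0712 for Ncam1, -0.2575 to 0.1058 for Calcr and -0.0079 to 0.1092 for Megf10, and kept the sign at 0.0563 to 0.157 for Pax7, 0.0378 to 0.1702 for Vcam1 and 0.0384 to 0.1892 for Chrdl2. By the permutation test of ranks, Itga7 was 0.660 FPKM higher in the ADV group by median (p = 0.02, unadjusted). Of the other 4 genes in the wider fit, edgeR called 0 under each alternative run, and DESeq2 called 0 of the 2 to which it gave an adjusted p; these alternatives in the wider fit were chosen after seeing the data.

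For the lists, the clock score covariate gave 0 called genes for other satellite cell, commitment, fusion, partner, denervation, endothelial, fibro-adipogenic, mural and adipocyte genes. The replicate block gave 1 for other satellite cell genes and partners and 0 for fusion, endothelial, fibro-adipogenic and mural genes. With a mean of at least 1 read, partners were at 3 and endothelial markers at 1. DESeq2 gave 1 leukocyte, 3 Schwann cell, 3 mural and 2 adipocyte markers. Leaving out each mouse gave 2 to 3 other satellite cell, 5 to 6 commitment, 3 to 5 fusion and 3 to 5 partner genes, and 1 to 2 endothelial, 0 to 1 leukocyte, 0 to 3 Schwann cell, 0 to 4 mural and 1 to 2 adipocyte markers. Partners were at 3 without ADV mouse 24 or 34 or LD mouse 23, 28 or 30, endothelial markers at 1 without ADV mouse 24 or LD mouse 28 or 34, and mural markers at 0 without ADV mouse 24, 25 or 33 or LD mouse 27 or 28 and at 4 without ADV mouse 22. Mural markers were at 3 without ADV mouse 30 or 35 and at 2 without ADV mouse 21, 23, 27, 29, 31, 34 or 36 or LD mouse 21, 22, 26, 31 or 36. Leukocyte markers were at 1 without ADV mouse 27 or 28 or LD mouse 22 or 36, adipocyte markers at 2 without ADV mouse 22, 28, 29, 30, 31 or 35 or LD mouse 23, and Schwann cell markers at 3 without ADV mouse 23, 26 or 29 or LD mouse 21 or 31, at 2 without ADV mouse 28 or LD mouse 29 and at 1 without ADV mouse 22.

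The library numbers occur in both groups 14 times, and the main fit did not take them as pairs. Libraries of the same number had correlations of -0.26 to 0.427 (median 0.012) of their deviations from the group means, 6 of 14 over 0.1, and 3 of 14 matched best with their own number. These values do not settle whether some mice of the same number shared a condition. The block lowered the calls over all genes from 1301 to 494, and the same libraries without it gave 616. For Pax7, Calcr, Megf10 and Mymk counting error alone was 15.1%, 35.6%, 26.1% and 59.4% of the mean, and the spread between mice exceeded it in both groups for all but Megf10 in the ADV group.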
